A study of Mus musculus with 8 samples.

Results

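The 10 genes described here are Il33, the gp130-binding cytokines of the Il6 family (Il6, Lif, Il11 and Clcf1), Csf1, Il15, and the receptor genes Il6st, Il1r1 and Il1rl1. They were chosen by gene symbol with earlier results of these data known, so shares of them called are descriptions. All 10 were found among the 55367 genes of the count table. Poly(A) RNA was sequenced from FRCs, the fibroblastic reticular cells that form the stromal network of lymph nodes, with 2 libraries for each of 4 conditions and 8 libraries in all. The cells were 1 line derived from lymph node tissue of C57BL/6 mice with the p53 ER/ER genotype, which all conditions share, so the libraries do not sample different animals. For 4 days they received medium conditioned by B16.F10 melanoma cells (TCM), medium conditioned by FRCs themselves (CCM), RPMI with 15 mmol/L lactic acid (LA), or RPMI with the same volume of water (vehicle), and every one of these media held 2% FBS and was renewed at 48 hours. The study calls the libraries biological replicates and the labels only number them, so the P values measure the spread between these libraries.

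As background, IL33 is a cytokine of the IL1 family that stromal and barrier cells keep in the nucleus and release when they are damaged, and it acts on lymphoid cells and mast cells through the receptor ST2, encoded by Il1rl1. Cytokines of the IL6 family signal through the shared receptor chain gp130, encoded by Il6st, which activates JAK kinases and STAT3. CSF1 is the growth factor that macrophages and their precursors depend on.

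Total counts per library ranged from 8232889 to 14107964, and the floor of 3 counts equaled 0.212 to 0.355 CPM, the unit of all levels here (counts scaled to the size of the library). The test covered 12137 genes that had 10 or more counts in 3 or more libraries, among them 8 of the 10 genes. Il11 and Il1rl1 did not reach this minimum. The FRC label was checked against 13 marker genes, of which 9 were tested. Mean levels of Pdpn were 126 to 186 CPM and those of Vcam1 141 to 207 CPM across conditions, whereas the lymphoid chemokine gene Ccl21a was at 0 in every library, Ccl19 had 1 count in all, and Icam1 and Thy1 did not pass the filter. Of 7 blood cell markers, 5 were at 0 in all libraries (Ptprc, Itgam, Adgre1 and Cd3e among them), and the summed level of the list was 1.20 to 3.37 CPM. The melanoma list summed to 1.82 to 3.67 CPM in the media without tumor cell products and to 2.29 to 2.63 CPM with TCM, with Tyr at 0 throughout. Tyrp1, another melanoma gene of that list, had 6 and 3 counts with TCM and 0 in the other 6 libraries, and the part of such RNA in the results below was not tested.

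Compared per exon length, the 10 genes spanned a wide range in vehicle-treated FRCs. Csf1 stood at 136 ± 7.44 CPM per kb (SD, n = 2) and Il6st at 57.8 ± 0.393. Il33 followed at 24.2 ± 1.04 CPM per kb, Il1r1 at 11.5 ± 0.234 and Clcf1 at 7.88 ± 0.804. These neighbors in the order were apart by more than their spread. Lif had 1.44 ± 0.0275 CPM per kb, Il15 1.06 ± 0.109 and Il6 0.340 ± 0.104, and the remaining genes, Il1rl1 and Il11, lay at 0.121 ± 0.0566 and 0.0713 ± 0.0249 and could not be ordered at this depth. With TCM the order changed, since Il33 fell to 2.83 ± 0.491 CPM per kb, below Il1r1 at 15.7 ± 1.49 and Clcf1 at 7.04 ± 0.0154. Lif, at 0.247 ± 0.0410 CPM per kb with TCM, then stood below Il15 at 0.828 ± 0.147 and Il6 at 0.769 ± 0.324, which overlapped each other.

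**Figure D1:**
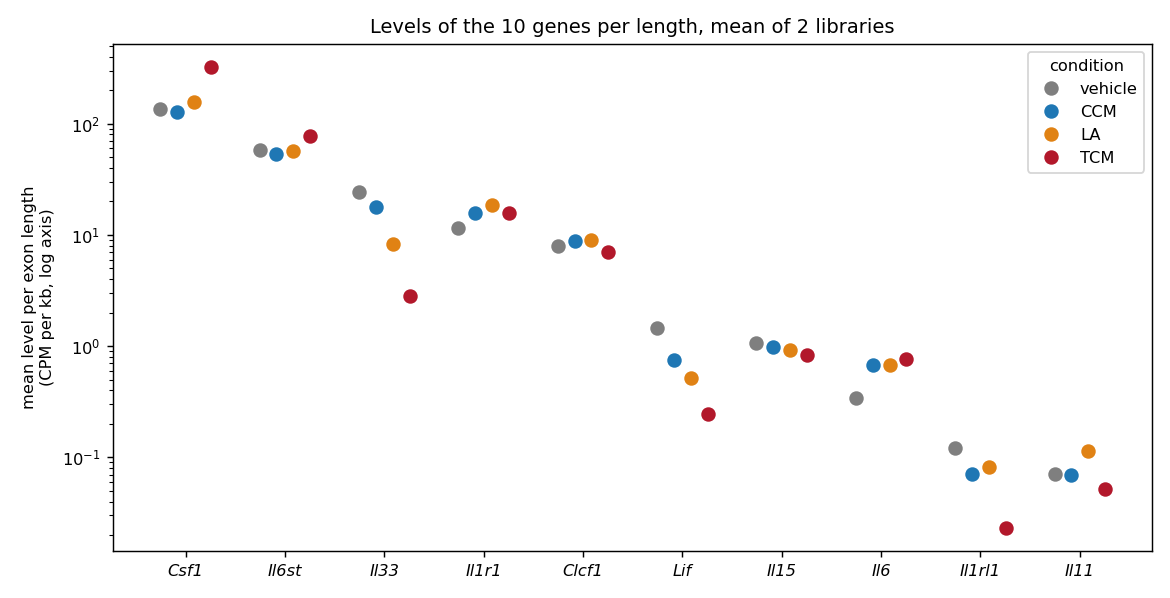
Mean level per exon length (CPM per kb, log axis) of the 10 genes under vehicle, CCM, LA and TCM, each point the mean of 2 libraries. Csf1 was the highest of the 10 under every condition, and Il33 spanned 24.2 CPM per kb with vehicle to 2.83 with TCM.

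Il33 lies at chr19:29925114-29960718 on the plus strand of GRCm38. RefSeq places its transcripts at more than 1 start, and the 250 bases upstream of the 2 starts it lists are shown because Il33 is the gene of the 10 that changed in the most comparisons. They cover chr19:29924863-29925112 and chr19:29945540-29945789 on the plus strand of GRCm38.p6, and capitals mark matches to the motifs searched.

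Il33 upstream of the first start: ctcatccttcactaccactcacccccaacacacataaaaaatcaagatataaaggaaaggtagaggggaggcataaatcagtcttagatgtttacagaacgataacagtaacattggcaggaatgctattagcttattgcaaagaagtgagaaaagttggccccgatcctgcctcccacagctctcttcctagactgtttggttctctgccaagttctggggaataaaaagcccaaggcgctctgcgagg
Il33 upstream of the second start: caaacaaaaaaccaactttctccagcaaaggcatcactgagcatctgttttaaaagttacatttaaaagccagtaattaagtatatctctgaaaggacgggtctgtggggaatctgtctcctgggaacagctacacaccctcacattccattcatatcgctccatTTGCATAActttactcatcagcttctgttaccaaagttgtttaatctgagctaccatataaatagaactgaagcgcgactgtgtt

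On both strands, 4 motifs of factors known downstream of cytokine receptors were searched: TGANTCA for AP-1, TTCNNNGAA for STAT, GGGANNTTC for NF-kB and TTGCNNAA for C/EBP. Among 32851 such windows of the mouse genome, with chr18 left out, 6.75% hold the AP-1 letters, 7.02% the STAT letters, 3.23% the NF-kB letters and 9.56% the C/EBP letters. The first Il33 window held none of them, and the second held 1 C/EBP match, 85 to 78 bases before the start. RefSeq windows were found for 8 of the 10 genes, 12 windows in all, of which 7 held at least 1 match. The share of all windows with any match was not counted. A match is a stretch of letters, not a shown binding site.

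Il33 was lower with LA than with vehicle and lower still with TCM. Its libraries held 72.0 and 67.8 CPM with vehicle, 48.2 and 55.0 CPM with CCM, 21.5 and 26.5 CPM with LA, and 7.17 and 9.17 CPM with TCM. No 2 conditions overlapped, and the order vehicle, CCM, LA, TCM held for every library. Total counts are bulk values, so fewer cells with the transcript and less transcript per cell cannot be told apart.

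The first comparison asks what tumor-derived factors did to FRCs over medium conditioned by FRCs. Of the 12137 genes, 19.1% were called between TCM and CCM, which required a log2 fold change (FC) beyond 0.39 together with an adjusted P value below 0.05, and 46.3% of these calls were higher with TCM. Scaling by library totals alone moved the median log2 FC of all genes by −0.14 and lowered this share to 24.2%. Of the 8 tested genes, 4 were called: Il33 and Lif fell, and Csf1 and Il6st rose. The median log2 FC of the 8 genes was −0.12, beside 0.00032 over all genes tested. Il33 was 6.31-fold lower with TCM than with CCM (log2 FC −2.66, SE 0.158, adjusted P = 1.04e-05, edgeR). The gap exceeded the spread between libraries, and the call held whichever library was left out.

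The second comparison asks what LA did over its water vehicle. No library was treated with sodium lactate or with acid alone, so lactate and acidity cannot be told apart. Here 2.55% of all genes were called, and of the 8 genes 3 were: Il33 and Lif fell and Il1r1 rose. The median log2 FC of the 8 genes was 0.07, beside −0.00035 over all. Il33 was 2.89-fold below its vehicle level (log2 FC −1.53, SE 0.135, adjusted P = 0.000317, edgeR) and was called whichever library was left out.

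The difference between these effects, TCM over CCM minus LA over vehicle, asks where the tumor medium and LA changed a gene unequally. It was called for 10.4% of all genes and for 3 of the 8: Il33, Csf1 and Il1r1. For Il33 it was −1.13 on the log2 scale (SE 0.210, adjusted P = 0.00571, edgeR), so that TCM lowered it more than LA did, and this call held whichever library was left out. With TCM the level of Il33 was also 2.96-fold below that with LA (adjusted P = 0.000116, edgeR), in a direct comparison in which 16.1% of all genes and 3 of the 8 were called (Csf1 and Il6st higher, Il33 lower).

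**Figure D2:**
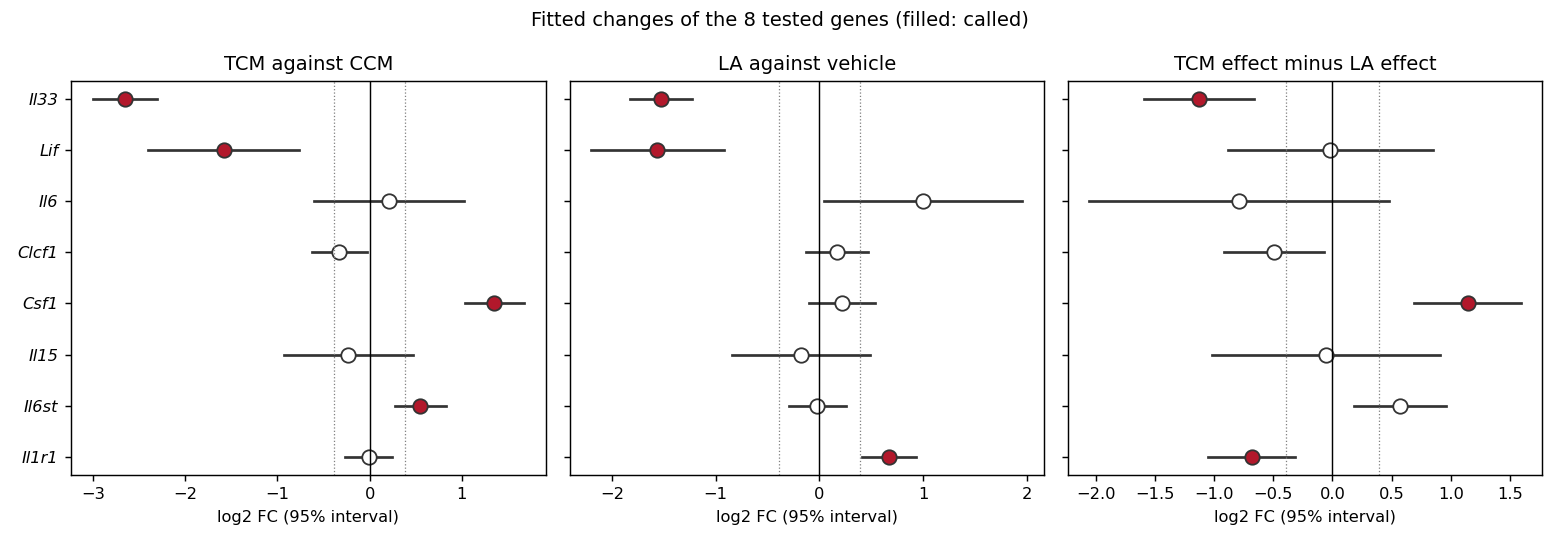
Fitted log2 FC of the 8 tested genes (points) with 95% intervals (lines) for TCM against CCM, LA against vehicle, and the difference of these effects, with filled points for called genes and dotted lines at a log2 FC of 0.39 in either direction. Il33 lay left of 0 in all 3 panels, Lif in the first 2 with a difference near 0, and Csf1 right of 0 for TCM.

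The controls themselves were compared to see what conditioning by FRCs did. Between CCM and vehicle 1.3% of all genes were called and 0 of the 8 by edgeR, and 0 of the 8 were called by DESeq2. Unadjusted P values under 0.05 by edgeR were found for Il33, Lif, Il1r1 and Il6. The shares of all genes under that value and called by DESeq2 are not given here. Il33 had a log2 FC of −0.44 there (SE 0.128, adjusted P = 0.133, edgeR), and it was called lower without TCM replicate 1 (adjusted P = 0.0227) or without TCM replicate 2 (adjusted P = 0.0230), with only the CCM and vehicle libraries (0.00218) and with no filter on low counts (0.0149). Against CCM in place of vehicle, LA gave calls for 0.626% of all genes and for 1 of the 8, Il33 (log2 FC −1.09, SE 0.136, adjusted P = 0.00632, edgeR). This call was lost without CCM replicate 1 (adjusted P = 0.0516), CCM replicate 2 (0.0892), LA replicate 1 (0.0721) or LA replicate 2 (0.0557). Against vehicle in place of CCM, TCM gave calls for 17.5% of all genes and for 5 of the 8, with Il33 8.56-fold lower (log2 FC −3.10, SE 0.157, adjusted P = 2.54e-06, edgeR). The comparisons that share a control or a treatment share its libraries and are not independent.

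Lif encodes leukemia inhibitory factor, a gp130 ligand that binds the LIF receptor, and lies at chr11:4257557-4272514 on the plus strand. Its upstream window, chr11:4257318-4257567 on the plus strand of GRCm38.p6, is shown because Lif was the other gene that fell in both main comparisons. It held 1 AP-1 match, 228 to 222 bases before the start.

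Lif: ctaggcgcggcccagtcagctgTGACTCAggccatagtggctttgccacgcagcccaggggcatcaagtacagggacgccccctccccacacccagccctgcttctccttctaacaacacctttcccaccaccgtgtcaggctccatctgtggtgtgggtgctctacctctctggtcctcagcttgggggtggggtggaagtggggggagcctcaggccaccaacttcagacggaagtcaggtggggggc

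Lif was low throughout, and lower under each treatment than under its control. Vehicle libraries held 6.37 and 6.20 CPM, CCM libraries 2.7 and 3.82 CPM, LA libraries 2.84 and 1.62 CPM, and TCM libraries 0.948 and 1.20 CPM. The vehicle libraries were above all others and the TCM libraries below all others, whereas CCM and LA overlapped. With TCM it was 3.0-fold below CCM (log2 FC −1.58, SE 0.373, adjusted P = 0.0116, edgeR), a call that was lost without CCM replicate 2 (adjusted P = 0.0862). With LA it was 2.96-fold below vehicle (log2 FC −1.56, SE 0.290, adjusted P = 0.0204, edgeR). This call was lost without vehicle replicate 1 (adjusted P = 0.117), vehicle replicate 2 (0.135) or LA replicate 2 (0.185). The difference of the effects was −0.02, with a 95% interval of −0.89 to 0.85, so unequal effects of up to this size could not be detected. CCM against vehicle gave −0.95 (adjusted P = 0.124, edgeR), which was called with only these libraries (0.0132) and with no filter on low counts (0.0200).

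Il6, at chr5:30013114-30019981 on the plus strand, encodes the founding cytokine of its family. Its window, chr5:30012864-30013113 on the plus strand of GRCm38.p6, is shown beside that of Lif because it held matches to 3 of the 4 motifs: AP-1 at 249 to 243 bases before the start, C/EBP at 128 to 121 and NF-kB at 44 to 36.

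Il6: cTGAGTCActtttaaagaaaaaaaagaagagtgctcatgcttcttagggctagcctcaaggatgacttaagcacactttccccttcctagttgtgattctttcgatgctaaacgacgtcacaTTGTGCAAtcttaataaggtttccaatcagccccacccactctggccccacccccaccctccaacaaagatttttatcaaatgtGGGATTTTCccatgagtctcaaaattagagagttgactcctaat

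The Il6 counts were near the minimum, at 9 and 7 with vehicle, 14 and 23 with LA, 17 and 19 with CCM, and 23 and 12 with TCM. Vehicle libraries, at 1.01 and 0.648 CPM, were below those of all other conditions, which lay between 1.31 and 2.42 CPM and overlapped each other. LA against vehicle gave a log2 FC of 1.00 with a 95% interval of 0.04 to 1.96 (adjusted P = 0.325, edgeR), which did not pass the test. TCM against CCM gave 0.21, with an interval of −0.61 to 1.03 (adjusted P = 0.730, edgeR). TCM against vehicle gave 1.20 (adjusted P = 0.0808, edgeR), and it passed without TCM replicate 2 (adjusted P = 0.0220).

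The other gp130 ligands gave no called change. Clcf1, at chr19:4214238-4223490 on the plus strand, encodes cardiotrophin-like cytokine factor 1, another gp130 ligand. It held 26.8 and 26.9 CPM with TCM, 33.9 and 33.4 with CCM, 32.2 and 27.8 with vehicle, and 38.1 and 29.7 with LA. The TCM libraries were the lowest, but the log2 FC against CCM was −0.33 (95% interval −0.63 to −0.03, adjusted P = 0.115, edgeR), and it passed only where counts were scaled without TMM factors (log2 FC −0.47, adjusted P = 0.0344). The annotation places AC109138.7 over Clcf1 on the same strand and Gm26115 on the opposite strand, so reads may be shared. Il11, at chr7:4772373-4782859 on the minus strand, encodes a cytokine of bone marrow and mesenchymal stroma. It had 1 and 2 counts with vehicle, 1 and 5 with LA, 0 and 3 with CCM, and 1 each with TCM, which is too few to compare conditions.

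Csf1, at chr3:107741048-107760469 on the minus strand, rose with TCM. Its window, chr3:107760470-107760719 on the minus strand of GRCm38.p6, is shown because Csf1 moved against Il33 and Lif. It held 1 NF-kB match, on its reverse strand, 153 to 145 bases before the start.

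Csf1: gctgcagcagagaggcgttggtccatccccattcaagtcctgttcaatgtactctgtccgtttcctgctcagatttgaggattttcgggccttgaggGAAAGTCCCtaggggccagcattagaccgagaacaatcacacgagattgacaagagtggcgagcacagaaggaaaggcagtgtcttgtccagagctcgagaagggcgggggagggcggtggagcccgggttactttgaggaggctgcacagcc

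The TCM libraries held 1582 and 1825 CPM of Csf1, beside 675 and 657 with CCM, 745 and 689 with vehicle, and 962 and 701 with LA. Both TCM libraries were above all others, and the LA libraries overlapped those of vehicle. Csf1 was 2.56-fold higher with TCM than with CCM (log2 FC 1.35, SE 0.147, adjusted P = 0.000113, edgeR), and this call held whichever library was left out. LA against vehicle gave 0.21, with a 95% interval of −0.11 to 0.53 (adjusted P = 0.589, edgeR), and the sign turned without LA replicate 1 (−0.03). The effects differed by 1.14 (SE 0.205, adjusted P = 0.00463, edgeR), a call that also held whichever library was left out. TCM exceeded vehicle 2.38-fold (adjusted P = 0.00023, edgeR) and LA 2.05-fold (adjusted P = 0.000731, edgeR).

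Il15, at chr8:82331632-82403222 on the minus strand, encodes a cytokine that NK cells and memory CD8+ T cells need. Its libraries lay between 1.64 and 2.58 CPM, with overlap between TCM and CCM and between LA and vehicle. Both TCM libraries were below both vehicle libraries (log2 FC −0.34, adjusted P = 0.495, edgeR). TCM against CCM gave −0.23 (95% interval −0.93 to 0.47, adjusted P = 0.651, edgeR) and LA against vehicle −0.18 (−0.84 to 0.49, adjusted P = 0.877, edgeR). A change of less than these intervals was not detectable at this depth.

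**Figure D3:**
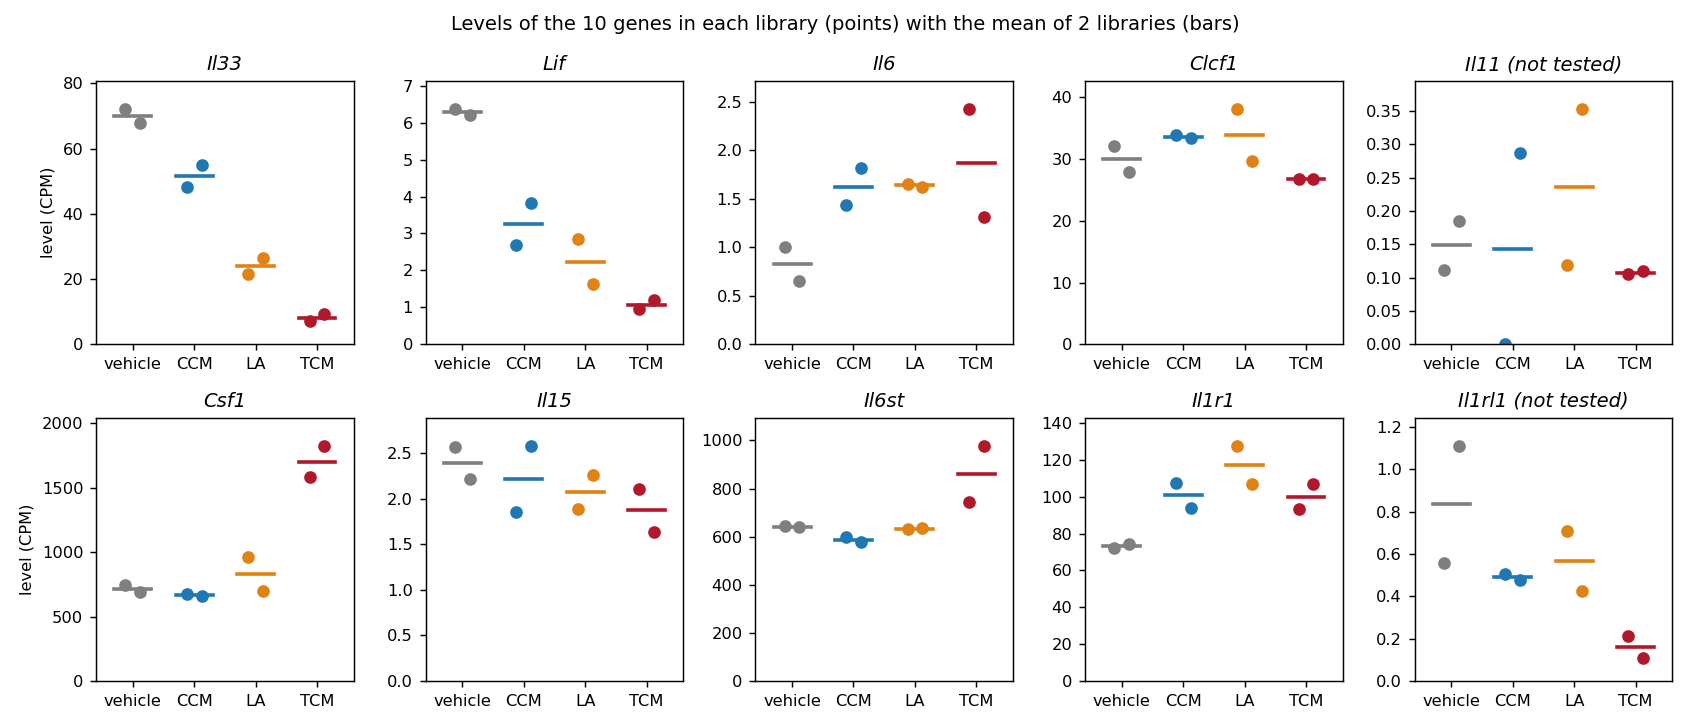
Level (CPM, linear axis from 0) of each of the 10 genes in each library (points) under vehicle, CCM, LA and TCM, with the mean of 2 libraries as a bar. Il33 and Lif were lowest with TCM, at means of 8.17 and 1.07 CPM, and Csf1 was highest with TCM, at a mean of 1704 CPM.

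Among the receptors, Il6st, at chr13:112464070-112510086 on the plus strand, was higher with TCM. Its libraries held 746 and 977 CPM with TCM, beside 598 and 578 with CCM, 645 and 638 with vehicle, and 630 and 634 with LA. The TCM libraries were above all others and were also the farthest apart. Against CCM the rise was 1.46-fold (log2 FC 0.55, SE 0.125, adjusted P = 0.00951, edgeR). The call was lost without CCM replicate 1 (adjusted P = 0.0687) or CCM replicate 2 (0.0867), when only these 4 libraries were fitted (0.0543), and without TCM replicate 2, where the log2 FC of 0.34 was under the threshold. LA against vehicle gave −0.02 (95% interval −0.29 to 0.25, adjusted P = 0.971, edgeR). The difference of the effects, 0.57, did not pass the test (SE 0.176, adjusted P = 0.0637, edgeR), and it passed without TCM replicate 1 (adjusted P = 0.000491), with no filter on low counts (0.00549), with DESeq2 (0.0242) and with a replicate block whose CCM numbers were crossed (0.019). TCM against vehicle (log2 FC 0.43, adjusted P = 0.0345) and against LA (0.45, adjusted P = 0.0307) were called by edgeR, but both calls were lost without any 1 library other than TCM replicate 1, at adjusted P values of 0.0544 to 0.176, and without TCM replicate 2 the log2 FC was 0.22 and 0.24. They were also lost without TMM factors (adjusted P = 0.0933 and 0.0820) and with only the libraries compared (0.109 and 0.113).

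Il1r1, at chr1:40225080-40317257 on the plus strand, encodes the signaling receptor for IL1 and was higher with LA. It held 72.3 and 74.4 CPM with vehicle, 128 and 107 with LA, 108 and 94.0 with CCM, and 93.4 and 107 with TCM. Vehicle was below all other conditions, whose libraries overlapped. LA exceeded vehicle 1.59-fold (log2 FC 0.67, SE 0.119, adjusted P = 0.0161, edgeR), and the call was lost without vehicle replicate 1 (adjusted P = 0.147), vehicle replicate 2 (0.141) or LA replicate 1 (0.131). TCM against CCM gave −0.01, with a 95% interval of −0.27 to 0.25 (adjusted P = 0.960, edgeR). The effects differed by −0.68 (SE 0.168, adjusted P = 0.0246, edgeR), which was lost without vehicle replicate 1 (adjusted P = 0.0992), vehicle replicate 2 (0.0842), CCM replicate 1 (0.134) or LA replicate 1 (0.102).

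The control chosen mattered for Il1r1. TCM against vehicle gave 0.45 (adjusted P = 0.0232, edgeR). This call was lost without vehicle replicate 1 (log2 FC 0.43) or 2 (0.47), and the change was under the fold threshold without TCM replicate 2 (0.35). It was also lost without TMM factors (log2 FC 0.34, adjusted P = 0.0707, edgeR). CCM against vehicle gave 0.46 (adjusted P = 0.0915, edgeR), which was called without TCM replicate 1 (0.0157) or 2 (0.0156), with only the CCM and vehicle libraries (0.00106), with no filter on low counts (0.0119) and with the crossed replicate block (0.0399). The predicted gene Gm38070 overlaps Il1r1 on the same strand.

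Il1rl1, at chr1:40429570-40465415 on the plus strand, encodes ST2, the receptor for IL33, and was barely detected. It had 5 and 12 counts with vehicle, 6 and 5 with CCM, 6 in each LA library, and 2 and 1 with TCM. Both TCM libraries were under the floor of 3 counts per library, and all other libraries were above it. The observed mean level was 2.59-fold above the TCM floor with vehicle, 1.53-fold with CCM and 1.76-fold with LA. These ratios leave out the counting error of the few counts in those 3 conditions. They are therefore not lower bounds, and the change was not tested.

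Other genes of these pathways were taken from 3 lists chosen by role. The lists were also chosen with earlier results of these data known, so the shares called are descriptions. The gp130 list held 45 genes, of which 34 were tested. Between TCM and CCM 10 of them rose and 4 fell, 41.2% of those tested beside 19.1% of all genes, and their median log2 FC was 0.10. Between LA and vehicle 2 were called, Lif among them, 5.88% beside 2.55%, with a median of −0.02.

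Receptors that pair with gp130 moved in different directions with TCM. Osmr, the oncostatin M receptor chain, held 261 and 318 CPM with TCM beside 173 and 166 with CCM and rose (log2 FC 0.77, SE 0.122, adjusted P = 0.00121, edgeR). Lifr, the LIF receptor chain, held 231 and 262 CPM with TCM beside 352 and 350 with CCM and fell (log2 FC −0.51, SE 0.121, adjusted P = 0.0117, edgeR). Neither pair of groups overlapped. The Osmr call held whichever library was left out, and the Lifr call was lost without CCM replicate 1 or 2, with an adjusted P of up to 0.0798. For Osmr the effects of TCM and LA differed by 1.17 (adjusted P = 0.00143, edgeR), and for Lifr by −0.56, which did not pass the test (adjusted P = 0.0585, edgeR).

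Among transducers, Stat3, the main STAT of gp130 signaling, was 0.53 higher in log2 FC with TCM (adjusted P = 0.00277, edgeR), while the kinase gene Jak2 was 0.40 lower (adjusted P = 0.0379, edgeR). The call of Stat3 was lost without TMM factors, and that of Jak2 with DESeq2 and in other fits.

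Feedback inhibitors split. Socs3, a STAT3-induced inhibitor of gp130 signaling, held 25.5 and 22.3 CPM with TCM beside 11.0 and 12.1 with CCM (log2 FC 1.05, adjusted P = 0.000642, edgeR). Pias3, an inhibitor of STAT3 binding to DNA, gave −0.39 (adjusted P = 0.0343, edgeR), a call kept in 5 of 16 alternative fits. These fits kept the main fold threshold.

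Of 10 tested target genes of STAT3, 5 were called with TCM, all of them higher, which is 50% beside 8.83% of all genes called higher. Lcn2, which encodes lipocalin 2, went from 9 and 6 counts with CCM to 53 and 43 under TCM (log2 FC 2.92, SE 0.347, adjusted P = 0.000194, edgeR). Cebpd, a transcription factor of the acute phase response, held 317 and 235 CPM with TCM beside 92.8 and 102 with CCM (log2 FC 1.51, SE 0.148, adjusted P = 6.29e-05, edgeR). Cebpd, Socs3 and Osmr were called in all 16 alternative fits at the main fold threshold, and Lcn2 in the 12 that tested it. At a fold threshold of 1 the call of Osmr (log2 FC 0.77) was lost. Lcn2 reached the minimum for testing only through LA replicate 2 and both TCM libraries. Its call could therefore not be checked without any 1 of these. Its place among the 5 called targets rests on the TCM libraries, where it was high. Bcl3 (0.85), Timp1 (0.54) and Pim1 (0.71) also rose, but with less stable calls. Timp1 was called in 14 of 16 alternative fits (not without CCM replicate 1 or TCM replicate 1), Bcl3 in 13 (not with DESeq2 or without either CCM library) and Pim1 in 6 (not with DESeq2, without TMM factors, with only the libraries compared, or without any 1 library other than TCM replicate 1). By edgeR the TCM effect exceeded the LA effect for Lcn2 (2.96, adjusted P = 0.0110), Cebpd (1.23, adjusted P = 0.00334), Stat3 (0.74, adjusted P = 0.00526) and Socs3 (0.79, adjusted P = 0.0468). Stat3, Pias3, Cebpd, Timp1, Bcl3 and Pim1 overlap other annotated genes, so their counts are less certain.

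**Figure D4:**
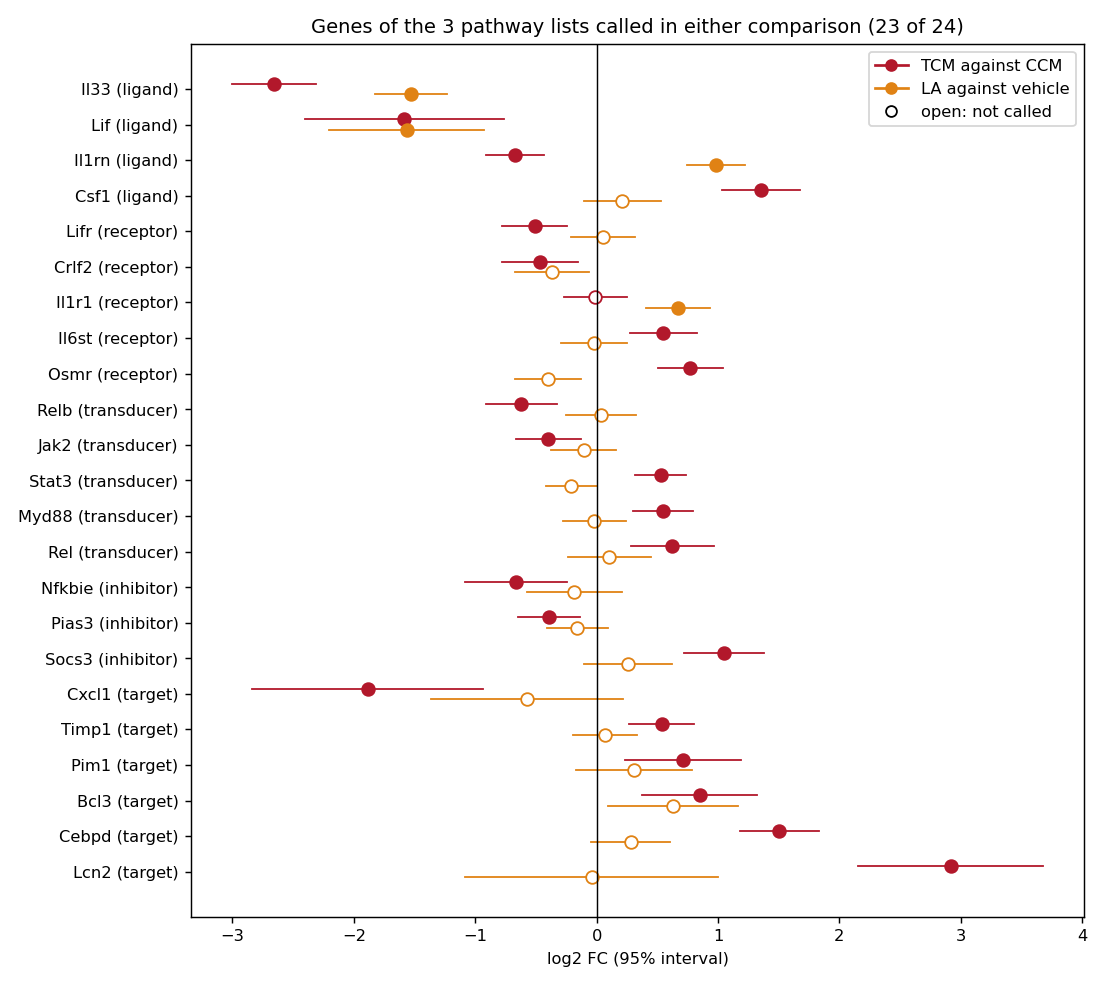
Fitted log2 FC (points) and 95% intervals (lines) of 23 of the 24 genes of the 3 lists called in TCM against CCM or LA against vehicle, ordered by role, with open points where the gene was not called in that comparison. The target genes Cebpd and Lcn2 lay far right of 0 for TCM, and Il1rn lay left of 0 for TCM and right of 0 for LA.

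The IL1 family list held 53 genes, of which 49 were found by symbol and 36 were tested. With TCM 2 rose and 5 fell, 19.4% of those tested beside 19.1% of all genes, a share near the background, and the median log2 FC was 0.0039. With LA 2 rose and 1 fell, 8.33% beside 2.55%, with a median of −0.01. Besides Il33, the gene that passed in both comparisons was Il1rn, which encodes the IL1 receptor antagonist. Its libraries held 93.4 and 96.2 CPM with vehicle, 170 and 205 with LA, 144 and 131 with CCM, and 85.9 and 86.7 with TCM.

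Il1rn thus stood highest with LA and lowest with TCM. LA raised it over vehicle (log2 FC 0.99, SE 0.108, adjusted P = 0.00112, edgeR). It fell with TCM against CCM (−0.67, SE 0.108, adjusted P = 0.00138, edgeR). Both calls held in all 16 alternative fits, which kept the main fold threshold. The TCM call was lost at a fold threshold of 0.68, and both calls were lost at 1. The effects differed by −1.66 (SE 0.153, adjusted P = 8.01e-05, edgeR). Both values depend on the control, since Il1rn also rose from vehicle to CCM (0.53, adjusted P = 0.0423, edgeR), and TCM against vehicle gave −0.14 (adjusted P = 0.428, edgeR).

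The other genes of the list that fell with TCM were Cxcl1, a neutrophil chemokine and target of NF-kB (log2 FC −1.89, adjusted P = 0.0102), Relb, an NF-kB subunit (−0.62, adjusted P = 0.00724), and Nfkbie, an NF-kB inhibitor (−0.66, adjusted P = 0.0294), all by edgeR. Cxcl1 held 9.27 and 6.66 CPM with TCM beside 26.6 and 32.6 with CCM. Those that rose were Myd88, the adaptor of IL1 family receptors (0.55, adjusted P = 0.00590), and Rel, another NF-kB subunit (0.62, adjusted P = 0.0158), by edgeR. Each of these 5 calls was lost when 1 or more of the CCM libraries was left out. The highest adjusted P value over all alternative fits was 0.0863 for Relb, 0.0623 for Myd88, 0.118 for Rel, 0.184 for Nfkbie and 0.299 for Cxcl1. Myd88 overlaps other annotated genes.

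The list of colony-stimulating factors, gamma-chain cytokines and their receptors held 24 genes, 12 of them tested. With TCM Csf1 rose and Crlf2, a chain of the TSLP receptor, fell (log2 FC −0.47, adjusted P = 0.0378, edgeR, lost with DESeq2 and without vehicle replicate 2 or any CCM or TCM library), 16.7% beside 19.1% of all genes. The median log2 FC of this list was −0.21 with TCM and −0.09 with LA. With LA 0 were called by edgeR (beside 2.55% of all genes) and 0 by DESeq2 (beside 2.69%). Il7 (log2 FC 1.13) and Crlf2 (−0.36) had unadjusted P values under 0.05 by edgeR. The share of all genes under that value was not counted.

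The 5 tested genes whose log2 CPM followed that of Il33 most closely over the 8 libraries were Ackr3 (r = 0.994), Apobr (0.992), Angpt1 (0.991), Cmklr1 (0.991) and Glp1r (0.988). These r values are a description over libraries that share conditions, taken from the top of 12137 genes. Ackr3, a scavenger receptor for CXCL12, had mean levels of 30.8, 20.5, 8.32 and 2.59 CPM with vehicle, CCM, LA and TCM, and Angpt1, a ligand of the endothelial receptor TIE2, 10.3, 7.45, 2.49 and 0.591 CPM. All 5 genes fell in both main comparisons, which follows from choosing them by their likeness to Il33 over these libraries. Apobr, Angpt1, Cmklr1 and Glp1r overlap other annotated genes. The summed level of the 4 epithelial markers followed the same order, at 4.47 to 4.53 CPM with vehicle, 2.19 to 3.15 with CCM, 1.77 to 2.19 with LA and 0.632 to 0.873 with TCM, carried by Cdh1, with Epcam at 0 in every library, and its part in the fall of Il33 was not tested.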

How the data were processed

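The 8 RNA libraries of 1 FRC line fell into 4 conditions by their sample titles. Directional poly(A) reads were aligned by the authors to GRCm38 with STAR 2.7.0a and assigned to genes with featureCounts, and the deposited values are raw counts. Per the labels, Subread 2.0.1 and DESeq2 1.32.0 were also used. Whether the counting used strand is not given in the sources used here. A second deposited table holds the same counts for 12137 genes and served only for that check.

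Genes with 10 or more counts in 3 or more libraries were tested in R 4.3.3 with the quasi-likelihood test of edgeR 4.0.16 (TMM scaling, robust, a mean for each condition, all 8 libraries), and P values were adjusted over all 12137 genes by the Benjamini-Hochberg procedure. Calls needed a log2 FC beyond 0.39. SE is the log2 FC divided by the square root of F. The exact permutation test of 2 libraries against 2 cannot go below P = 0.333, so single values were not tested alone. Reads carried no molecular identifiers, so the floor of 3 counts per library covers counting error only. The script was tested on simulated counts. All 10 genes are named, and so are list genes called in TCM against CCM or LA against vehicle. Some list genes are counted but not reported here by name. The genes and lists were chosen with earlier results of these data known, and the direct comparison of TCM with LA was added after seeing the data. DESeq2 1.42.0, other scalings, filters, fold thresholds, a replicate block and leaving out each library were alternatives. Gene positions and exon lengths come from GENCODE M21 (GRCm38), not the annotation counted on. Upstream sequences come from RefSeq (GRCm38.p6), read with Python 3.11.15.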

Additional observations from a re-analysis of the deposited data

Results flagged for a closer look

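For 3 of the genes the effect of TCM over CCM and the effect of LA over vehicle differed by the test of the difference itself (edgeR, adjusted over all genes tested). The difference was −1.13 on the log2 scale for Il33 (adjusted P = 0.00571), which fell in both comparisons and fell more with TCM. It was 1.14 for Csf1 (adjusted P = 0.00463), which rose with TCM and gave no call with LA. It was −0.68 for Il1r1 (adjusted P = 0.0246), which rose with LA and gave no call with TCM.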

How the results depend on the processing

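With 2 libraries per condition, which gene passed often rested on 1 library. The labels tie the replicate numbers to no shared source. Deviations of same-numbered libraries correlated at 0.386 (vehicle with LA), 0.13 (vehicle with TCM) and 0.124 (LA with TCM), and at −0.278 (TCM), −0.0893 (LA) and −0.0521 (vehicle) with CCM, so the numbers were not taken as pairs. With the replicate number as a block, 4 of the 8 genes were called between TCM and CCM (beside 19.5% of all genes). Between LA and vehicle 3 were called (beside 2.93%), and no call of the 10 genes changed. Crossing the CCM numbers in the block was added after seeing the data. It called 4 (beside 22% of all genes) and 3 (beside 4.91%) in these comparisons. Il6st was then also called for the difference of the effects, and Il1r1 between CCM and vehicle.

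The next calls are given by gene, without the share of all genes called in the same fits. Between CCM and vehicle, Il33, Lif and Il1r1 passed with no filter on low counts and with only the libraries compared. Between TCM and vehicle, Il33, Lif and Csf1 stayed called without TMM factors and at a fold threshold of 0.68 or 1. Il6st and Il1r1 did not. With TCM the gp130 list gave 8 and 5 calls at these thresholds (23.5% and 14.7% of those tested, beside 11% and 6.26% of all genes). At the same thresholds the IL1 family list gave 2 and 2 (5.56%), and the colony-stimulating factor list 1 and 1 (8.33%). The latter list also gave 1 with DESeq2 (8.33% beside 16.5% of all genes) and 1 with only the libraries compared (8.33% beside 14.3%). With LA the gp130 list gave 1 with at least 10 counts in every library (3.23% beside 2.54% of all genes). At a threshold of 1 it and the IL1 family list gave 1 each (2.94% and 2.78% beside 0.709%).

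Leaving out 1 library changed the number of calls among the 8 genes in every comparison of a treatment with a control and of the controls. The share of all genes called changed as well for TCM against CCM and LA against vehicle. Such counts thus do not describe the 8 genes alone. The gp130 list ranged from 7 to 13 with TCM (7 without either CCM library, 20.6% beside 9.85% and 10.6% of all genes, and 13 without TCM replicate 2, 39.4% beside 23.7%) and 0 to 3 with LA (0 without either vehicle library or LA replicate 2, 3 without either TCM library, 9.09% beside 5.09% of all genes), the IL1 family list from 3 to 8 with TCM (3 without CCM replicate 2, 8.33% beside 10.6% of all genes, and 8 without TCM replicate 1, 22.2% beside 18.9%), and the colony-stimulating factor list from 1 to 2.

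Of the log2 FC of the 8 genes under all alternatives, 789 kept direction and side of the threshold, 41 lost a call, 17 gained one and 26 turned sign, the last only where no call was made. For LA against CCM, Clcf1 gave 0.012 with DESeq2, 0.0080 with its size factors and 0.025 with no filter, and Il6 −0.0091 without TMM factors. Without single libraries, log2 FC ranged for TCM against CCM from −0.30 to 0.58 (Il6), −0.46 to 0.014 (Il15) and −0.11 to 0.089 (Il1r1), for LA against vehicle from −0.012 to 0.35 (Clcf1) and −0.033 to 0.42 (Csf1), for the difference from −0.44 to 0.36 (Lif) and −0.28 to 0.19 (Il15), for CCM against vehicle from −0.36 to 0.11 (Il15), for LA against CCM from −0.15 to 0.19 (Il6), −0.18 to 0.18 (Clcf1) and −0.29 to 0.18 (Il15), and for TCM against LA from −0.32 to 0.56 (Il6). The cause was not tested. Depth limits Il6, Il15, Il11 and Il1rl1 most.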
